A study of Mus musculus with 9 samples.

Results

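The genes described here are 10 mouse genes chosen by symbol as a readout of systemic stress: 8 genes that glucocorticoid hormones are known to induce (Fkbp5, Tsc22d3, Sgk1, Zbtb16, Plin4, Pdk4, Cdkn1a and Sult1a1) and the 2 metallothionein genes Mt1 and Mt2, out of 54532 gene IDs counted. Striatum, the input nucleus of the basal ganglia, was taken from cGAS KO, STING KO and wild-type (WT) mice, and polyadenylated RNA was sequenced in 3 libraries per group, 9 in all. Both knockouts were made with CRISPR-Cas9 on a C57BL/6J background, and the series is described as a study of brain after ischemic stroke. The time after stroke, the side of the brain, sex, age, handling and any steroid treatment were not given in the sources used here, and no group is labelled as unoperated or as given hormone, so whether these genes were induced in any library cannot be checked. cGAS binds misplaced DNA in the cytosol and then synthesises a cyclic dinucleotide, and STING is the membrane protein that binds this messenger and starts an interferon response.

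Library totals ranged from 14129021 to 21286775 counts, and nothing in the labels says that the libraries came from separate animals, so each p-value measures the spread between these libraries, which may be technical. Levels of Cgas were 0.262 to 1.10 CPM, counts scaled to library size, in cGAS KO, 1.05 to 1.55 in STING KO and 1.40 to 3.18 CPM in WT, and those of Sting1 were 1.66 to 2.75 CPM in cGAS KO, 1.05 to 2.18 in STING KO and 1.34 to 4.06 CPM in WT. The Sting1 ranges of STING KO and WT overlapped, and which part of either gene was edited was not given in the sources used here. In each group 1 library (replicate 2 of cGAS KO, replicate 2 of STING KO, replicate 3 of WT) had few genes with 1 to 9 counts, between 2280 and 4723, where the other 6 libraries had between 7096 and 7927. These 3, taken as the library with the fewest such genes in each group, are called libraries of low complexity. They also had the 3 lowest totals, 14129021, 14435122 and 14627748 counts in the same order. The lowest total of the other 6 was 15572655. WT replicate 3 also stood apart in markers: its 8 cortical neuron markers summed to 1275 CPM and its 10 medium spiny neuron markers to 4964 CPM, against 207 to 735 and 8352 to 10218 CPM in the other 8 libraries. Its astrocyte sum was above those 8 libraries, and its ependymal, microglia, oligodendrocyte and blood sums were below them. The ependymal sum was 5.59 CPM, against 22.2 to 42.4 CPM. Endothelial, choroid plexus and fibroblast sums lay within the range of the others. What part these features play in the values of single genes was not tested, and fold changes of the 10 genes are given with and without the 3 libraries. In bulk tissue, fewer cells of a type and less RNA per cell cannot be told apart.

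Corticosterone, the main glucocorticoid of mice, crosses into the brain and binds the glucocorticoid receptor (Nr3c1), which is held ready by the Hsp90 chaperone machinery. The bound receptor moves to the nucleus and activates genes through glucocorticoid response elements, paired half-sites separated by a short spacer. Metallothioneins are small cysteine-rich proteins that bind zinc and copper. They are induced by glucocorticoids and also, through the factor MTF-1 and its metal response elements, by zinc, and in brain Mt1 and Mt2 are made largely by astrocytes.

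Of the 10 genes, 9 had promoter windows in RefSeq on GRCm38.p6, 17 windows in all, each running from 250 bases before to 50 bases after an annotated start. Zbtb16 had none. Each window was searched on both strands for the metal response element core, TGCACNC or TGCGCNC, and for a glucocorticoid response element, taken as GNACA and TGTNC with any 3 bases between them. The metal core is short and occurred in 25.7% of all 32851 windows, whereas the glucocorticoid element occurred in 0.475% of them. Among the 17 windows, 2 held the glucocorticoid element and 3 held the metal core. The windows below are shown because they carry the glucocorticoid element (Mt1 and 1 of the 6 Sgk1 windows) or at least 3 metal cores (Mt1 and Mt2), which 1.97% of all windows do. Matched letters are in capitals, each sequence runs 5′ to 3′ on the plus strand, and the windows are chr8:94178839-94179138 for Mt1, chr8:94172368-94172667 for Mt2 and chr10:21993640-21993939 for Sgk1.
Mt1: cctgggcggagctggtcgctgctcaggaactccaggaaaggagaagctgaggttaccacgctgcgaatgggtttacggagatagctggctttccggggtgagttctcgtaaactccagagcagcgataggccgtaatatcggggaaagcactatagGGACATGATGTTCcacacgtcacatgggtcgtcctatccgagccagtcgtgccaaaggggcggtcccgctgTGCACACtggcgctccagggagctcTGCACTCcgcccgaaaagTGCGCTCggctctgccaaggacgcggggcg
Mt2: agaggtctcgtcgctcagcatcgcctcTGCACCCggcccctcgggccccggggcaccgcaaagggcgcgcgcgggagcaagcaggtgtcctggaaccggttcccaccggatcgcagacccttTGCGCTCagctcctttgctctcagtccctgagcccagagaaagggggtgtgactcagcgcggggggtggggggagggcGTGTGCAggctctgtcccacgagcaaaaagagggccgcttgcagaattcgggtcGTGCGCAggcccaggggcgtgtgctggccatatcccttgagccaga
Sgk1: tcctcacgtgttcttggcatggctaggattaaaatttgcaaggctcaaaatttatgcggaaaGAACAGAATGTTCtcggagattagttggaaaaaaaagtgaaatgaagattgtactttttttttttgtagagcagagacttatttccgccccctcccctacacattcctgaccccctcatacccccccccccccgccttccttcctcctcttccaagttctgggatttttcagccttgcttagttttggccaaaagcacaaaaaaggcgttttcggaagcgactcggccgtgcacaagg
In the Mt1 window the glucocorticoid element GGACATGATGTTC began at position -94 relative to the start and the metal cores at -23, 2 and 20, while the Mt2 window held 4 metal cores, 2 on each strand, and no glucocorticoid match. The Sgk1 element, GAACAGAATGTTC, began at -188. Positions are counted from the RefSeq start used for each window. The GENCODE M21 annotation also has transcripts of Mt1 that start at 94179211 and 94179241, and 1 of Mt2 that starts at 94172860. These starts lie downstream of the windows shown, so positions relative to them differ. The sites are letter matches in 300-base windows. They do not show binding, and a window without a match says nothing of elements farther away, where many glucocorticoid receptor sites lie.

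All 10 genes passed the filter on low counts. None was called in any comparison by edgeR's quasi-likelihood test with Benjamini-Hochberg adjustment over 17821 genes, and none by DESeq2 or limma-voom. In cGAS KO against WT, 0 of 10 were called, against a background of 0% of all genes tested, and every member had an adjusted p of 0.9999. At an unadjusted p under 0.05 there were 3 members in this comparison, 1 higher and 2 lower, where 2.03% of all genes passed (1.04% as higher and 0.982% as lower). The higher one was Mt2, whose counts cannot be read as its level, for a reason given below. In STING KO against WT, 0 of 10 were called (background 0%, adjusted p = 0.9999 for every member by edgeR), and 3 members, all lower, had an unadjusted p under 0.05, where 1.63% of all genes passed in either direction with 0.898% as higher and 0.735% as lower. In STING KO against cGAS KO, 0 of 10 were called (background 0%, adjusted p = 0.999993 for every member by edgeR), and 1 member, higher, had an unadjusted p under 0.05, where 1.45% of all genes passed (0.825% as higher and 0.623% as lower).

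Signs were mixed. Fold changes were positive for 3 and negative for 7 members in cGAS KO against WT (median log2 fold change -0.17, against -0.01 over all genes tested), positive for 4 and negative for 6 in STING KO against WT (median -0.15, all genes -0.0044), and positive for 5 and negative for 5 in STING KO against cGAS KO (median -0.02, all genes 0.0080). Both knockouts lay on the same side of WT for 7 members, but the comparisons share the WT libraries. The 3 libraries of each group did not overlap for 2 members in cGAS KO against WT, 1 higher and 1 lower, where this held for 8% of all genes (4% each way). In STING KO against WT it was 4 members, 1 higher and 3 lower, where it held for 7.07% of all genes (3.4% as higher and 3.67% as lower). In STING KO against cGAS KO it was 2 members, both lower, where it held for 7.35% of all genes (3.63% as higher and 3.72% as lower). Without the libraries of low complexity, 0 members were called by edgeR, with smallest adjusted p-values of 0.971 in cGAS KO against WT, 0.653 in STING KO against WT, and 0.926 for STING KO against cGAS KO, where 0%, 0.0227% and 0.017% of all 17657 genes were called. In those 6 libraries 1, 2 and 1 members, in the same order, had an unadjusted p under 0.05, against 4.2%, 6.9% and 3.7% of all genes.

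**Figure D1:**
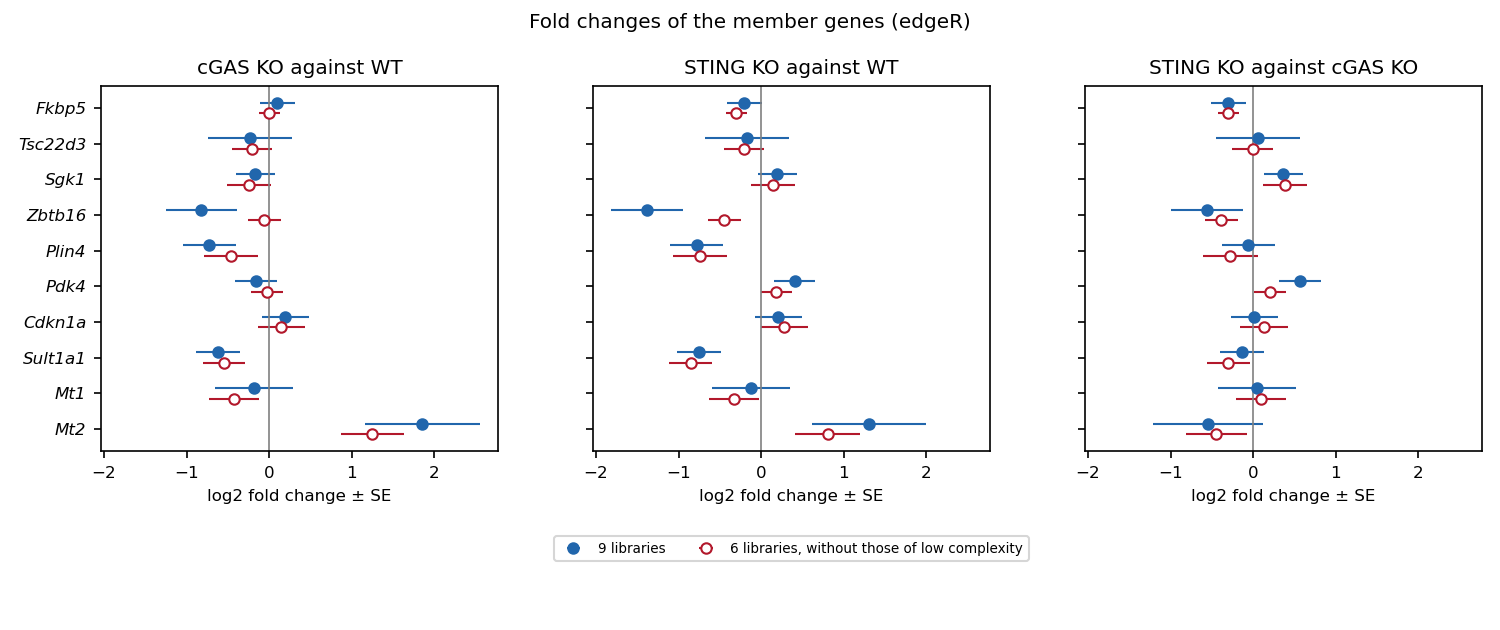
Log2 fold change (horizontal axis, with SE) of each of the 10 genes in the 3 comparisons, from all 9 libraries (filled) and from the 6 libraries left without those of low complexity (open). In the 9 libraries Mt2 has the highest value against WT in both knockouts and Zbtb16 the lowest; no gene passed adjustment, and the Zbtb16 value in cGAS KO against WT moves from -0.82 to -0.06 between the fits.

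Levels between genes were compared as CPM per kilobase of exon, since longer transcripts collect more reads. Mt1, Sgk1 and Tsc22d3 led in that order in each group. Mt1 had 101 CPM per kb in cGAS KO, 105 in STING KO and 115 in WT. Sgk1 had 31.4 CPM per kb in cGAS KO, 40.5 in STING KO and 35.3 in WT, and Tsc22d3 had 12.4, 13.0 and 14.6 CPM per kb in the same groups. The lipid droplet gene Plin4 was last in both knockouts, at 0.986 CPM per kb in cGAS KO and 0.949 in STING KO, and next to last in WT at 1.63. Last in WT was Mt2 at 1.11 CPM per kb, from counts that cannot be read as its level, for a reason given below.

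The first role group holds the regulators that glucocorticoids induce to shape their own signal. Fkbp5 encodes a co-chaperone of Hsp90 that lowers the receptor's affinity for hormone and so acts as a feedback brake; it lies on chr17:28399094-28517527 (GRCm38, minus strand). Fkbp5 had 51.8, 42.1 and 51.6 CPM in cGAS KO, 40.7, 34.1 and 43.3 CPM in STING KO, and 52.8, 50.4 and 32.7 CPM in WT. The lowest library of each group was the one of low complexity, and all 3 groups overlapped. The log2 fold change of Fkbp5 was 0.10 (SE 0.21) in cGAS KO against WT, -0.20 (SE 0.21) in STING KO against WT and -0.30 (SE 0.21) in STING KO against cGAS KO. In the 6 libraries without low complexity the cGAS KO value against WT was 0.0024, and both STING KO values were -0.30 with an SE of 0.13, with edgeR adjusted p-values of 0.715 against WT and 0.926 against cGAS KO.

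Tsc22d3, which encodes the leucine zipper protein GILZ, an inhibitor of inflammatory transcription factors (chrX:140539528-140600659, minus strand), had 87.3, 24.4 and 50.2 CPM in cGAS KO, 58.9, 31.7 and 78.4 CPM in STING KO, and 80.2, 78.3 and 31.8 CPM in WT. The lowest value in each group again belonged to the library of low complexity, and the spread within a group exceeded any difference between group means. Its log2 fold changes were -0.23, -0.17 and 0.06, each with an SE of 0.51, in cGAS KO against WT, STING KO against WT and STING KO against cGAS KO. With the libraries of low complexity left out they were -0.21, -0.21 and -0.0029, each with an SE of 0.25.

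Sgk1, a kinase that regulates ion channels and transporters (chr10:21882184-21999903, plus strand), had 192, 155 and 115 CPM in cGAS KO, 156, 193 and 247 CPM in STING KO, and 189, 175 and 155 CPM in WT. The groups overlapped, with the highest library in STING KO and the lowest in cGAS KO. Its log2 fold change was -0.17 in cGAS KO against WT, 0.20 in STING KO against WT, and 0.37 for STING KO against cGAS KO, with SEs of 0.23, 0.23 and 0.24. The 6 libraries left after removing those of low complexity gave -0.24, 0.15 and 0.39, each with an SE of 0.27.

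Zbtb16 encodes the zinc finger repressor PLZF (chr9:48654297-48836222, minus strand). It had 17.1, 14.3 and 14.5 CPM in cGAS KO, 10.4, 6.97 and 13.8 CPM in STING KO, and 16.4, 16.4 and 48.4 CPM in WT. WT replicate 3, at 48.4 CPM, was high against every other library, and all 3 STING KO libraries lay below every library of the other groups. The log2 fold change was -1.38 (SE 0.44, edgeR unadjusted p = 0.0109) in STING KO against WT, -0.82 (SE 0.43) in cGAS KO against WT and -0.56 (SE 0.43) in STING KO against cGAS KO. Without WT replicate 3 alone, the values against WT were -0.66 for STING KO and -0.10 for cGAS KO. Without all 3 libraries of low complexity they were -0.45 (SE 0.20, edgeR adjusted p = 0.725) and -0.06 (SE 0.20), and the value for STING KO against cGAS KO was -0.39 (SE 0.20).

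**Figure D2:**
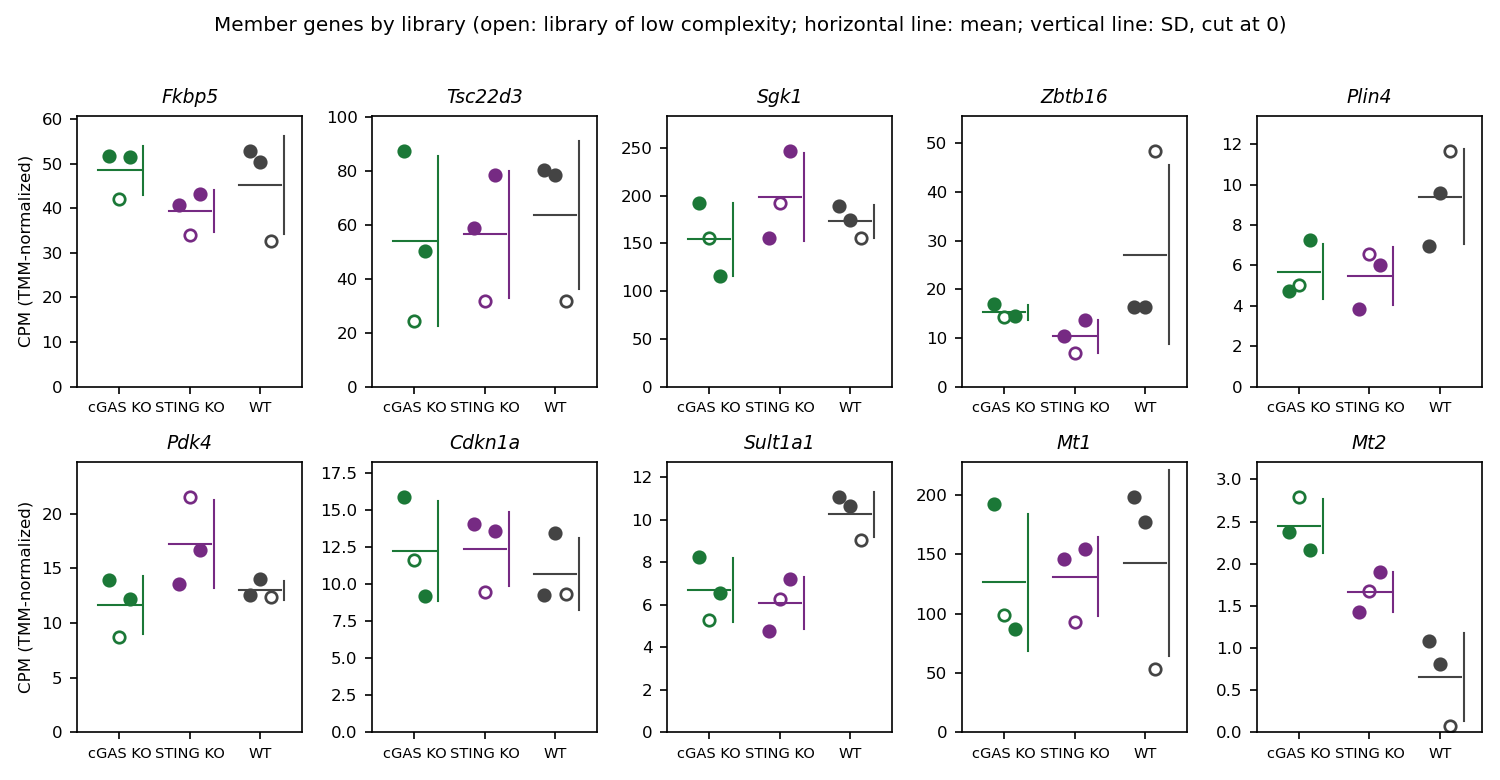
TMM-normalized CPM (vertical axis, from 0) of each gene in the 3 libraries of each group, with the group mean (horizontal line) and SD (vertical line); open points are the libraries of low complexity. For Tsc22d3 and Fkbp5 the open point is the lowest of its group in all 3 groups, and for Zbtb16 the open WT point at 48.4 CPM stands far above the rest.

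The next group holds enzymes and lipid proteins. Sult1a1, a sulfotransferase of phenols and catechols (chr7:126672865-126676432, minus strand), had 8.24, 5.28 and 6.55 CPM in cGAS KO, 4.79, 6.27 and 7.21 CPM in STING KO, and 11.1, 10.6 and 9.06 CPM in WT. All 6 knockout libraries lay below all 3 WT libraries. The log2 fold change was -0.61 (SE 0.27, edgeR unadjusted p = 0.0459) for cGAS KO and -0.75 (SE 0.27, edgeR unadjusted p = 0.0197) for STING KO against WT, and neither passed adjustment. Without the libraries of low complexity the values were -0.55 (SE 0.26) and -0.85 (SE 0.26, edgeR adjusted p = 0.653), and the STING KO value had the smallest adjusted p of any member in those fits. STING KO and cGAS KO overlapped, with a log2 fold change of -0.14, or -0.30 without the libraries of low complexity. Of the Sult1a1 exon bases, 61 (4.05%) are shared with Sgf29.

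Plin4, a coat protein of lipid droplets (chr17:56100591-56109803, minus strand), had 4.76, 5.06 and 7.27 CPM in cGAS KO, 3.85, 6.55 and 6.04 CPM in STING KO, and 6.95, 9.61 and 11.7 CPM in WT. STING KO lay below WT without overlap, while the highest cGAS KO library passed the lowest WT library. Its log2 fold change was -0.72 (SE 0.32, edgeR unadjusted p = 0.0498) in cGAS KO against WT, -0.78 (SE 0.32, edgeR unadjusted p = 0.0374) in STING KO against WT and -0.06 (SE 0.32) in STING KO against cGAS KO. With the 3 libraries of low complexity left out, these were -0.46 (SE 0.32), -0.74 (SE 0.33) and -0.28 (SE 0.33).

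Pdk4, a kinase that shuts down pyruvate dehydrogenase and so spares glucose (chr6:5483351-5496309, minus strand), had 14.0, 8.75 and 12.2 CPM in cGAS KO, 13.6, 21.5 and 16.7 CPM in STING KO, and 12.6, 14.0 and 12.4 CPM in WT. The highest library was STING KO replicate 2 and the lowest cGAS KO replicate 2, both of low complexity, and the groups overlapped. The log2 fold change in STING KO against cGAS KO was 0.57 (SE 0.25, edgeR unadjusted p = 0.0488), and 0.21 (SE 0.19) without the libraries of low complexity. Against WT it was -0.16 in cGAS KO and 0.41 in STING KO, each with an SE of 0.25, and without those libraries -0.023 and 0.19, each with an SE of 0.19. Leaving out STING KO replicate 2 alone gave 0.22 for STING KO against WT.

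Cdkn1a, the cell cycle inhibitor p21 and also a target of p53 (chr17:29090976-29100727, plus strand), had 15.9, 11.6 and 9.24 CPM in cGAS KO, 14.1, 9.48 and 13.6 CPM in STING KO, and 9.26, 13.5 and 9.34 CPM in WT. The 3 groups overlapped. Its log2 fold changes were 0.20 in cGAS KO against WT, 0.21 in STING KO against WT, and 0.01 for STING KO against cGAS KO, each with an SE of 0.28. In the 6 libraries the values were 0.15, 0.28 and 0.13, each with an SE of 0.29. Exon overlap with another annotated gene covers 273 bases (7.68%) of Cdkn1a.

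Mt1 (chr8:94179082-94180327, plus strand) was the most abundant of the 10 genes per kilobase. It had 193, 99.1 and 87.5 CPM in cGAS KO, 146, 93.1 and 154 CPM in STING KO, and 198, 177 and 53.1 CPM in WT. WT alone spanned the whole range of the 9 libraries, with replicate 1 the highest and replicate 3 the lowest. The log2 fold change was -0.18 in cGAS KO against WT, -0.12 in STING KO against WT, and 0.05 for STING KO against cGAS KO, each with an SE of 0.47. In the 6 libraries that are not of low complexity they were -0.42, -0.32 and 0.10, each with an SE of 0.30.

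Mt2 (chr8:94172664-94173568, plus strand), its neighbour and close relative, was counted far less: 41, 37 and 33 counts in cGAS KO, 23, 24 and 34 counts in STING KO, and 24, 15 and 1 counts in WT. In CPM this was 2.44 ± 0.32 in cGAS KO, 1.67 ± 0.24 in STING KO and 0.65 ± 0.52 in WT (SD, n = 3 each). In CPM no library of one group overlapped another group, and cGAS KO was the highest; in unscaled counts cGAS KO overlapped STING KO, and STING KO overlapped WT. The log2 fold change was 1.86 (SE 0.70, edgeR unadjusted p = 0.0247) in cGAS KO against WT, 1.31 (SE 0.69) in STING KO against WT and -0.55 (SE 0.67) in STING KO against cGAS KO. Without WT replicate 3 and its single count, the values against WT were 1.36 for cGAS KO and 0.81 for STING KO, and without all 3 libraries of low complexity 1.25 (SE 0.39) and 0.81 (SE 0.39), with -0.44 (SE 0.37) for STING KO against cGAS KO. Per 100 Mt1 counts there were 1.24, 2.82 and 2.47 Mt2 counts in cGAS KO, 0.978, 1.80 and 1.23 in STING KO, and 0.547, 0.455 and 0.133 in WT. The knockouts lay above WT in this ratio, but it is made from the same Mt2 counts and is not a separate result.

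The Mt2 values carry a limit from the annotation. Of its 588 exon bases, 432 (73.5%) are shared with Gm45774, an antisense gene on the minus strand (chr8:94170748-94173412), which leaves 156 bases to Mt2 alone. The strand setting of the counting was not given in the sources used here, and without strand reads from the pair cannot be told apart, so these counts cannot be read as the level of Mt2. Gm45774 itself had 8, 0 and 1 counts in cGAS KO, 4, 0 and 2 in STING KO, and 6, 3 and 0 in WT. Mt1, Fkbp5, Tsc22d3, Sgk1, Zbtb16 and Pdk4 share no exon base with another gene. Among the other metallothioneins, Mt3, the form of neurons and astrocytes, had 132, 17.9 and 42.9 CPM in cGAS KO, 130, 9.83 and 111 CPM in STING KO, and 94.3, 69.0 and 14.1 CPM in WT, and Mt4 had 0 counts in every library. Mt3 was lowest in the library of low complexity in all 3 groups.

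**Figure D3:**
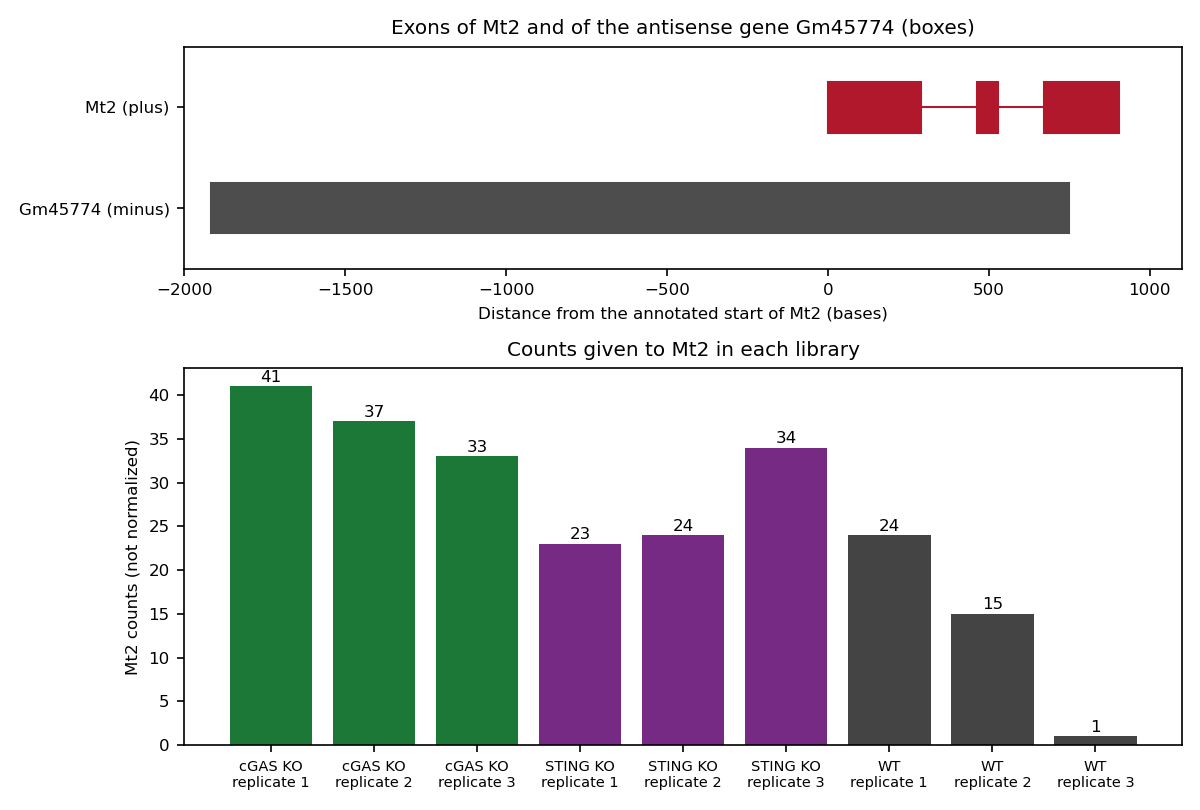
Top, exons of Mt2 and of the antisense gene Gm45774 against distance from the annotated start of Mt2 in bases; bottom, Mt2 counts (not normalized) in each library, bars from 0. The antisense exon covers 432 of the 588 Mt2 exon bases, and counts run from 33 to 41 in cGAS KO, 23 to 34 in STING KO and 1 to 24 in WT.

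Within the groups, the library of low complexity held the lowest value for some of the 10 members. It was the lowest of its group for 5 members in cGAS KO, 5 in STING KO and 7 in WT, and in all 3 groups for 2 members, Fkbp5 and Tsc22d3. The share of all genes for which this held was not computed, so whether the members differ from other genes in this is not known. On the log2 scale, against the mean of the other 2 libraries of the group, Tsc22d3 was at -1.50 in cGAS KO, -1.11 in STING KO and -1.32 in WT. Mt1 was at -0.50, -0.69 and -1.82 in the same groups. Zbtb16 went both ways, at -0.14 in cGAS KO, -0.79 in STING KO and 1.56 in WT.

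**Figure D4:**
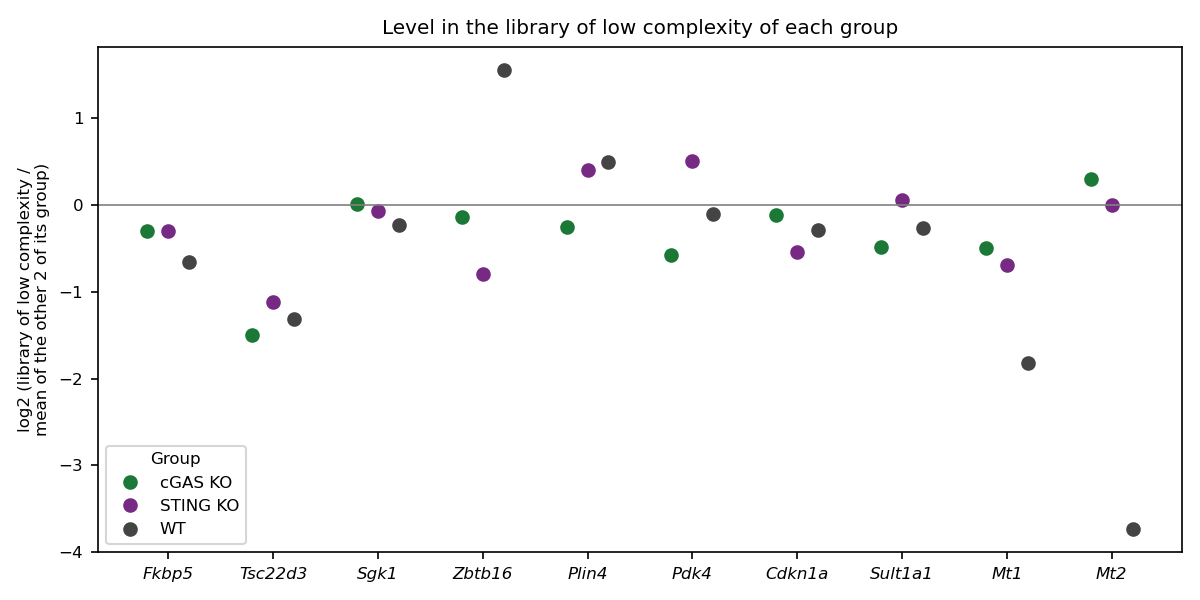
Log2 ratio (vertical axis) of the library of low complexity to the mean of the other 2 libraries of its group, for each gene and group. Tsc22d3, Fkbp5, Mt1 and Cdkn1a lie below 0 in every group. Zbtb16 in WT lies at 1.56 and Mt2 in WT at -3.74.

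Beyond the 10 members, 26 other genes that glucocorticoids induce were all tested, and 0 were called in any comparison by edgeR. Of these 26, 12 had a positive fold change in cGAS KO against WT, 16 in STING KO against WT, and 14 for STING KO against cGAS KO, with median log2 fold changes of -0.02, 0.04 and 0.02, close to the medians of all genes. At an unadjusted p under 0.05 by edgeR there was 1 gene in cGAS KO against WT, lower, where 2.03% of all genes passed. There were 6 in STING KO against WT, 3 higher and 3 lower, where 1.63% of all genes passed, and 2 in STING KO against cGAS KO, 1 higher and 1 lower, where 1.45% passed. In the 6 libraries without low complexity the counts were 2, 9 and 5 of 26, where 4.2%, 6.9% and 3.7% of all genes passed, and 0 were called. The list was chosen with earlier results of these data known, so these shares are a description. Dusp1, a phosphatase that switches off MAP kinases and is also an immediate early gene, had 21.9, 14.6 and 18.0 CPM in cGAS KO, 65.0, 36.1 and 39.9 CPM in STING KO, and 23.2, 22.8 and 24.1 CPM in WT. Every STING KO library was above every other library, with a log2 fold change of 1.01 (SE 0.25, edgeR unadjusted p = 0.00287) against WT and 1.37 (SE 0.26, edgeR unadjusted p = 0.000384) against cGAS KO, and 1.19 (SE 0.23) and 1.39 (SE 0.23) in the 6 libraries. Mertk is a receptor for dying cells on astrocytes and microglia. It averaged 51.8 ± 5.71 CPM in cGAS KO, 40.9 ± 4.41 in STING KO and 67.3 ± 8.92 CPM in WT (SD, n = 3 each). Its log2 fold change against WT was -0.38 (SE 0.17) in cGAS KO and -0.72 (SE 0.17) in STING KO. In the 6 libraries these were -0.21 (SE 0.14) and -0.55 (SE 0.14). Gjb6, the astrocyte gap junction protein connexin 30, averaged 27.5 ± 0.997 CPM in cGAS KO, 25.7 ± 2.41 in STING KO and 41.4 ± 5.62 CPM in WT (SD, n = 3 each), with log2 fold changes of -0.59 (SE 0.17) for cGAS KO and -0.69 (SE 0.17) for STING KO against WT, and -0.60 (SE 0.17) and -0.62 (SE 0.17) in the 6 libraries. The 2 most abundant of the 26, the glutamine synthetase gene Glul and Fam107a, had log2 fold changes between -0.28 and -0.05 in all 3 comparisons.

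**Figure D5:**
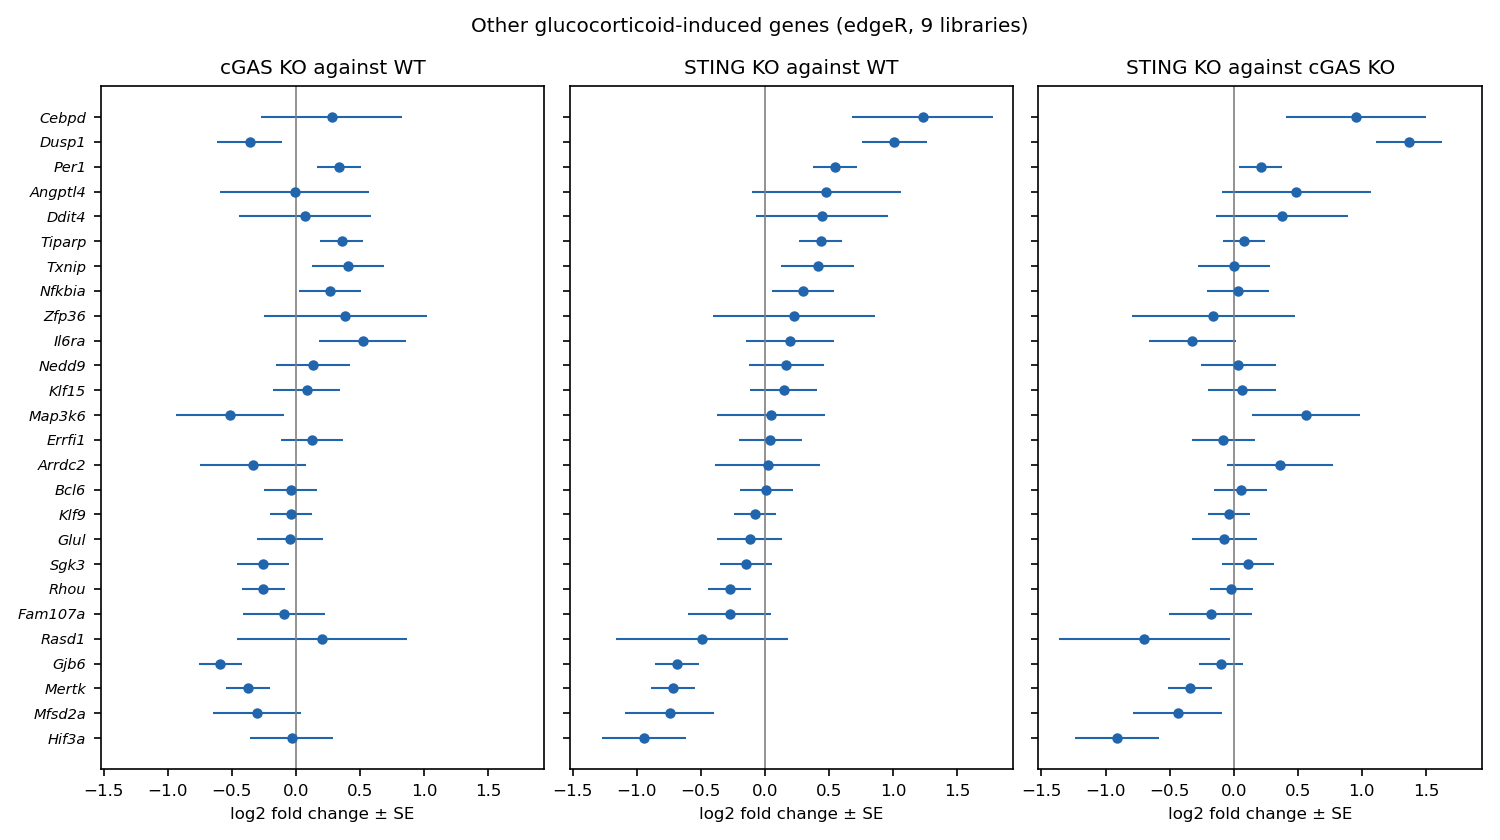
Log2 fold change (horizontal axis, with SE) of the 26 other glucocorticoid-induced genes in the 3 comparisons, in 9 libraries, ordered by STING KO against WT. Points fall on both sides of 0, and Dusp1 has a value of 1.01 in STING KO against WT, and 1.37 for STING KO against cGAS KO.

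The receptor and steroid-handling list, with the chaperones that hold the receptor ready, had 15 of 16 genes tested and 0 called by edgeR, 0 of them at an unadjusted p under 0.05 in any comparison. Fold changes were positive for 9 genes in cGAS KO against WT, 7 in STING KO against WT, and 4 for STING KO against cGAS KO. Over all genes tested, 48.5%, 49.4% and 51.1% were positive in the same order, and 2.03%, 1.63% and 1.45% passed the unadjusted threshold. Hsp90aa1, which encodes the inducible form of Hsp90, averaged 737 ± 167 CPM in cGAS KO, 635 ± 78.9 in STING KO and 703 ± 46.6 CPM in WT (SD, n = 3 each). Ptges3, the Hsp90 co-chaperone p23, averaged 91.0 ± 26.8 CPM in cGAS KO, 65.7 ± 14.0 in STING KO and 62.4 ± 9.42 CPM in WT (SD, n = 3 each). Hsd11b2, which inactivates corticosterone in kidney, reached at most 0.328 CPM.

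Of 17 metal-handling genes 0 were called by edgeR, and 10, 5 and 7 had positive fold changes in cGAS KO against WT, STING KO against WT and STING KO against cGAS KO. Over all genes tested, 48.5%, 49.4% and 51.1% were positive in the same order. In that list 1 of 17 genes had an unadjusted p under 0.05 by edgeR in cGAS KO against WT, where 2.03% of all genes passed. This was the transferrin receptor Tfrc at a log2 fold change of -0.51 (SE 0.19). It was at 153 CPM in WT replicate 3, against 112 and 109 CPM in the other 2 WT libraries, and without the libraries of low complexity the value was -0.25 (SE 0.14). The 1 such gene in STING KO against cGAS KO, where 1.45% of all genes passed, was the zinc importer Slc39a1 at -0.50 (SE 0.22). Without those libraries Slc39a1 was at -0.38 (SE 0.19). Of 16 tested p53 targets, 16 tested genes of the PDK and perilipin families and PPAR targets, and 9 tested TSC22, FKBP and SGK relatives, 0 were called by edgeR. The p53 target Btg2 had a log2 fold change of 1.12 (SE 0.50) in STING KO against WT and 1.33 (SE 0.50) in STING KO against cGAS KO, and 1.57 (SE 0.31) and 1.56 (SE 0.31) in the 6 libraries. Those 6 do not include STING KO replicate 2, where Btg2 was only 5.23 CPM. That is lower than any WT library (6.44 to 7.64 CPM) and inside the cGAS KO range (4.45 to 8.30 CPM). Replicate 1 of STING KO reached 26.9 CPM, replicate 3 14.9 CPM. Plin5, another perilipin, had 1.35 (SE 0.57) in STING KO against cGAS KO. Its level was 5.44 CPM in STING KO replicate 2, a library of low complexity, against 1.55 and 2.40 CPM in the other 2 STING KO libraries, and in the 6 libraries the value was 0.77 (SE 0.50). In the fit of 9 libraries Btg2 and Plin5 were the genes of the 3 lists with an unadjusted p under 0.05.

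The genes whose pattern over the 9 libraries was most like that of Fkbp5, by the root mean square difference of deviations of log2(CPM + 1) from each gene's own mean, among 12000 genes with a mean of at least 5 CPM, were Wipf3 (0.0668), Vipas39 (0.0776) and Oxct1 (0.0797), where Fkbp5 itself had an SD of 0.256. For Mt2, with an SD of 0.559, they were Zfp622 (0.194), Adra2c (0.194) and Pold1 (0.226) among 12001 genes. The Mt2 pattern rests on 1 to 41 counts a library, which cannot be read as the level of Mt2. No other member of the list was among either set.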

How the data were processed

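RNA of 9 striatum libraries, 3 per group, was counted per gene by the authors. HISAT2, featureCounts and mm10 are named in the submitters' processing notes, and their versions, the annotation release and the strand setting were not given in the sources used here. What was deposited are counts, whole numbers without normalization. Symbols came from GENCODE M21 on GRCm38, which matched 54495 of 54532 IDs, and promoter sequences from RefSeq on GRCm38.p6.

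The quasi-likelihood F test of edgeR 4.0.16 (R 4.3.3) was run on the counts, all 9 libraries in 1 fit, with TMM factors and filterByExpr, which left 17821 genes. P-values were adjusted by Benjamini-Hochberg over these genes, threshold 0.05. Each SE is the log2 fold change divided by the root of F. CPM are TMM-normalized, and a floor of 3 counts, for counting error only, is 0.135 to 0.226 CPM. The biological coefficient of variation was 38.8% in 9 libraries and 17.2% in the 6 without low complexity. No 2 libraries of a group agreed within sampling noise. The method was tested on simulated data. Gene means there were the same in all libraries apart from the genes changed, so libraries of low complexity were not simulated.

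Members and lists were chosen with earlier results of these data known. All 10 members were to be named, and of each list the genes called, up to 3 with the smallest unadjusted p and up to 2 with the highest mean CPM; the text gives some of these. The 3 genes most like Fkbp5 and Mt2 were those with the smallest root mean square difference. Alternatives were DESeq2 1.42.0, limma-voom (limma 3.58.1), RLE factors, no count filter, only the 6 libraries of the groups compared, a block for the replicate number, each library left out in turn, and leaving out or adjusting for the libraries of low complexity.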

Additional observations from a re-analysis of the deposited data

How the results depend on the processing

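No member was called under any alternative. Among the member values 235 kept their direction and 5 changed sign, all close to 0: Mt1 in STING KO against WT (0.065 with limma-voom, 0.026 with the replicate block, 0.0030 with low complexity as a covariate), Tsc22d3 in STING KO against cGAS KO (-0.0029 when the 3 libraries of low complexity were left out) and Cdkn1a in STING KO against cGAS KO (-0.0034 with the covariate). Leaving out 1 library changed sign in 27 values and not in 243. In cGAS KO against WT the ranges were -0.091 to 0.23 for Fkbp5, -0.77 to 0.12 for Tsc22d3, -0.35 to 0.0082 for Sgk1, -0.31 to 0.017 for Pdk4, -0.036 to 0.39 for Cdkn1a and -0.62 to 0.14 for Mt1. In STING KO against WT they were -0.49 to 0.11 for Tsc22d3 and -0.52 to 0.19 for Mt1, and in STING KO against cGAS KO -0.29 to 0.60 for Tsc22d3, -0.20 to 0.16 for Plin4, -0.15 to 0.25 for Cdkn1a, -0.28 to 0.042 for Sult1a1 and -0.15 to 0.50 for Mt1. Counts over all genes were 0 in each comparison in the main edgeR fit of 9 libraries, and 0 when any 1 library was left out. In cGAS KO against WT DESeq2 called 1. In STING KO against WT DESeq2 called 10, no count filter 4, the fit without low complexity 4 and the covariate 1, and in STING KO against cGAS KO they called 8, 4, 3 and 1; the cause was not tested. With the replicate number as a block 0 genes and 0 members were called. Of 9 same-numbered pairs 4 had a correlation of deviations over 0.1 (-0.45 to 0.50), and 3 of 9 libraries correlated best with their own number. The numbers were not taken as a pairing. The 3 libraries of low complexity, which do not all share a number, correlated with each other at 0.47 to 0.53. A pairing by number can therefore not be excluded by these correlations. Depth limits Mt2 most, with 1 to 41 counts a library.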

Other observations

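Of 15 genes of injury and reactive glia, 10 passed the filter on low counts and 0 were called between groups by edgeR, with 0 at an unadjusted p under 0.05 in any comparison. Of all genes, 2.03%, 1.63% and 1.45% passed this threshold in cGAS KO against WT, STING KO against WT and STING KO against cGAS KO. Gfap, the intermediate filament of astrocytes, averaged 104 ± 24.1 CPM in cGAS KO, 105 ± 24.3 in STING KO and 96.4 ± 29.0 CPM in WT (SD, n = 3 each). Vim, a filament of reactive astrocytes and vessels, averaged 50.1 ± 8.24 CPM in cGAS KO, 35.7 ± 11.3 in STING KO and 32.9 ± 11.7 CPM in WT (SD, n = 3 each). The acute-phase gene Lcn2 reached at most 0.783 CPM in any library, the cytokine gene Il1b 0.679 CPM and the chemokine gene Ccl2 0.0655 CPM, and Tnf had 0 counts in all 9. The series is described as one of ischemic stroke, and the part of the striatum taken was not given in the sources used here.

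Other cell types varied between libraries. The 8 choroid plexus markers summed to 29.3 to 221 CPM in cGAS KO, 62.8 to 521 in STING KO and 35.4 to 2791 CPM in WT. The 8 oligodendrocyte markers summed to 12139 to 15321 CPM in cGAS KO, 7469 to 12995 in STING KO and 7408 to 17590 CPM in WT. The 8 astrocyte markers summed to 4408 to 5638 CPM in cGAS KO, 4371 to 5490 in STING KO and 4840 to 7903 CPM in WT. The highest sum, in WT replicate 3, was mostly Slc1a2, the glutamate transporter GLT-1, at 6733 CPM, while S100b, Aldoc and Gfap, at 22.9, 208 and 64.5 CPM, were each the lowest of the 9 libraries there. What part these cell types play in the values of the 10 genes was not tested.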
